A study of Mus musculus with 2 samples.

Results

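Prostaglandin genes were compared between 1 culture of M210B4 cells treated for 24 h with an antibody that activates CD84, a receptor of the SLAM family, and 1 culture that received an IgG1 isotype antibody over those hours. M210B4 is an established mouse bone marrow stromal line. Both cultures, of 200000 cells each, were kept in RPMI medium with 2% serum, and the RNA of each went onto 1 Mouse Gene 2.0 ST array from Affymetrix. Of 10 listed genes, 9 had a probe set that names them alone, among 22180 genes with such a probe set, and each of the 9 was read from its single probe set of that kind. For Ptgs1, the constitutive cyclooxygenase, no probe set is named in the annotation used here, so it has no value. The genes were selected on their place in the pathway by a choice made with the log2 differences of these same arrays in view, so their values are a description. With 1 array per group there is no replicate check, test or standard error, and the number of arrays limits the precision.

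Prostaglandins are made from arachidonic acid, which phospholipases release from membrane lipids. A cyclooxygenase (Ptgs1 or the inducible Ptgs2) turns it into prostaglandin H, and a terminal synthase then makes prostaglandin E (Ptges, Ptges2, Ptges3) or prostacyclin (Ptgis). The products act on G protein-coupled receptors of the same or neighbouring cells and are inactivated by the dehydrogenase encoded by Hpgd. Marrow stromal cells are a known source of prostaglandin E, which acts on haematopoietic and immune cells.

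The promoters of the 2 genes with the largest differences, Ptges and Ptgfr, are shown with that of Ptgs2, the cyclooxygenase upstream of both. Each run covers 250 bases before and 50 bases after the RefSeq start (GRCm38.p6), 5′ to 3′ on the gene's strand. The capitals mark GC boxes (GGGCGG on either strand) and, for Ptgs2, also the CRE core (TGACG, here on the opposite strand as CGTCA), the E-box (CACGTG) and the C/EBP letters (TTGCNNAA).
Ptges, chr2:30903248-30903547, minus strand: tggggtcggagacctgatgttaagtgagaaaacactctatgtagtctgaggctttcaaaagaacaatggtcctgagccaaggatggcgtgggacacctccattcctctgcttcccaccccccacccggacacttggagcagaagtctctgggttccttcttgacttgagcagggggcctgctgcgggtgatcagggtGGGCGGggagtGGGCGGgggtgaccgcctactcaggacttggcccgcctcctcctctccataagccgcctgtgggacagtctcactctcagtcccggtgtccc
Ptgfr, chr3:151837479-151837778, minus strand: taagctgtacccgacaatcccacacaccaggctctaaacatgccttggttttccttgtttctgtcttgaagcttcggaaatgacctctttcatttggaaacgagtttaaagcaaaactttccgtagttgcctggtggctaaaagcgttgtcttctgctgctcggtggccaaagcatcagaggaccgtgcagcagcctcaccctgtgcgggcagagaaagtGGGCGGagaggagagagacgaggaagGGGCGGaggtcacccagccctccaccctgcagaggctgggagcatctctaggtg
Ptgs2, chr1:150099781-150100080, plus strand: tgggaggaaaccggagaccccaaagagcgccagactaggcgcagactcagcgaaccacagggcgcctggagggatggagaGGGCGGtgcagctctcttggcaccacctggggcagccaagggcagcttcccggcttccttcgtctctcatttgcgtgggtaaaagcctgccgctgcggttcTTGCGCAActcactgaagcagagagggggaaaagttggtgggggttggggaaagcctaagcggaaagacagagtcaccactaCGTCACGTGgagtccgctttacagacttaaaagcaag

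Ptges had a pair of GC boxes that begin 53 and 42 bases before the start, and Ptgfr a pair that begin 30 and 4 bases before it. Ptgs2 had 1 GC box, 170 bases before the start, its C/EBP letters 69 bases before the start, and a CRE core that shares bases with the E-box just after the start. GC boxes are common: 35.9% of 27025 promoters of the same length held at least 1 and 19.6% held 2 or more. Of the 9 listed genes with a promoter in the table (all but Ptgis), 6 held a GC box. Ptger4, which differed by 0.09, and Ptges3 each held 4, so a pair of GC boxes does not set Ptges and Ptgfr apart from the other listed genes. The CRE core was found in Ptgs2 and Ptges3 and in 21.0% of all promoters, the E-box in Ptgs2 and Ptges2 and in 7.24%, and the C/EBP letters in Ptgs2 and Ptger2 and in 10.8%, with both strands searched throughout. A full CRE (TGACGTCA), an AP-1 site (TGANTCA) or the EGR1 letters GCGGGGGCG were found in 0 of the 9, against 1.88%, 7.93% and 2.92% of all promoters. The TATA box TATAAA was found in Hpgd alone of the 9, and in 14.2% of all promoters, and the CAAT box CCAAT in Ptger2 and Ptger4, and in 37.9% of all. No spelling of a site other than those given was searched, and these letter matches are descriptions and not binding sites.

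The deposited values are log2 expression summaries, so a step of 1 is a doubling, and each difference is the anti-CD84 value minus the IgG1 value. A gene was called detected when above 4.84 on at least 1 array, the 95th percentile of 1394 olfactory and vomeronasal receptor genes, genes of sensory neurons that serve as a floor. The brightness of different probe sets cannot be compared, so each gene is compared with itself. The 2 arrays had median values of 4.87 (anti-CD84) and 4.88 (IgG1) and a Pearson r of 0.967 across 41345 probe sets, which are not independent replicates. Of 14 marrow stroma markers 11 were detected, with Fn1, Vim and Col1a1 above 12 on both arrays. Lepr, Eng and Nt5e were below the detection level on both arrays, and Thy1 was below it after anti-CD84 (4.39) and above it after IgG1 (4.95). Of 19 markers of haematopoietic and endothelial cells 6 were detected, and all 19 lay between 3.50 and 5.19 after anti-CD84 and between 2.90 and 5.56 after IgG1, with the leukocyte marker Ptprc at 3.90 and 3.86. By the values as measured 3 of the 6 differed by more than 1.5-fold, each with 1 array under the detection level. The endothelial Cdh5 differed by -0.95 (at least 1.65-fold lower) and Pecam1 by -0.67, and the myeloid Csf1r by 0.72. That is 1 higher and 2 lower, beside 10.7% and 6.4% of all detected genes. With values floored at the detection level, Cdh5 alone passed 1.5-fold, and Pecam1 and Csf1r lay within it. The 2 markers above the detection level on both arrays also lay within 1.5-fold. The summed linear intensity of the 19 was 401 after anti-CD84 and 447 after IgG1. As 13 of the 19 were below the detection level on both arrays, these sums are mostly background and do not measure the amount of such cells.

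Of the 9 measured prostaglandin genes, Ptges and Ptgfr were more than 2-fold higher after anti-CD84 than after IgG1, 4 others were detected and lay within 1.5-fold, and 3 were below the detection level on both arrays. Among all 13284 detected genes the share at or past 2-fold higher was 1.98%, and at or past 1.5-fold higher it was 10.7%. None of the prostaglandin genes was 1.5-fold lower, against 6.4% of all detected genes. The median difference of the 6 detected prostaglandin genes was 0.18, against 0.09 over all detected genes. On each array all 6 exceeded the detection level. The RNA comes from whole cultures, so more cells with a transcript and more transcript per cell cannot be told apart, and of the 11 detected stroma markers 2, Cxcl12 and Pdgfra, were 2.15-fold and 1.89-fold higher after anti-CD84. The other 9 lay within 1.5-fold, with Col1a1 at -0.01, Vim at 0.07, Fn1 at 0.09 and Thy1 at -0.56, and the median of the 11 was 0.10. The part of the moving markers in the differences of Ptges and Ptgfr was not tested.

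**Figure D1:**
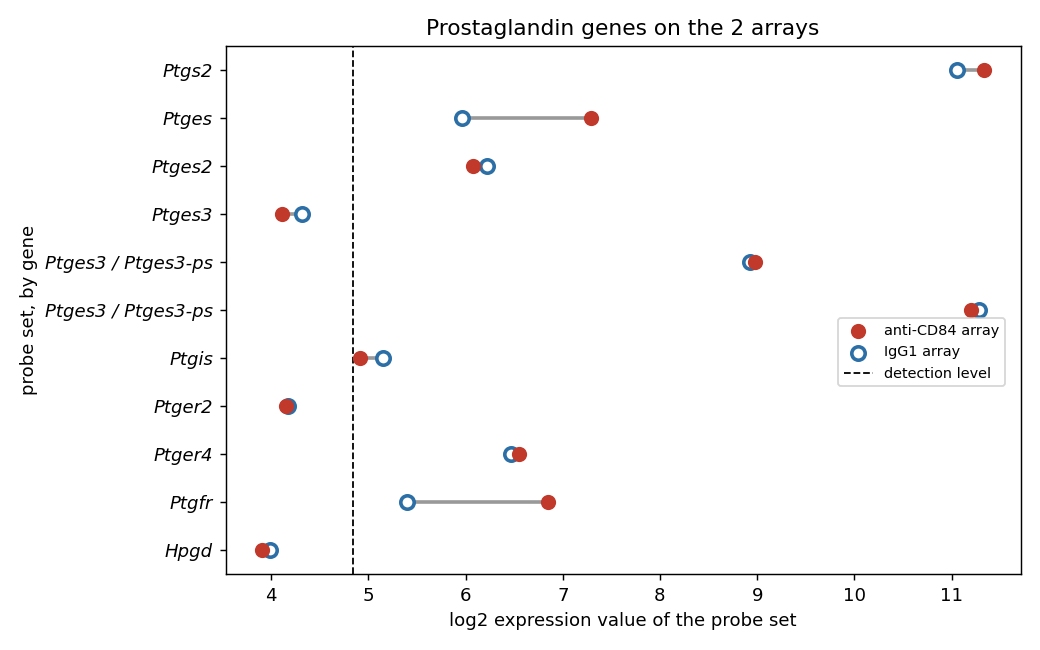
Log2 expression value (horizontal axis) of every probe set that names a measured prostaglandin gene (rows), on the anti-CD84 array (filled red) and the IgG1 array (open blue), with the detection level of 4.84 as a dashed line. The pairs of Ptges and Ptgfr stand 1.33 and 1.45 apart, while every other pair is within 0.28.

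Ptgs2, which carries out the committed step, had a log2 value of 11.34 after anti-CD84 and 11.06 after IgG1. The difference of 0.28 is 1.21-fold, and 44.4% of the 11761 genes above the detection level on both arrays had a larger one in absolute size. Detected genes with a mean level of 11 or more had differences with a standard deviation of 0.22. Ptgs2 was thus far above the detection level on both arrays and was not among the genes past 1.5-fold.

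Ptges encodes the inducible microsomal prostaglandin E synthase, which acts downstream of Ptgs2. Its log2 value was 7.29 after anti-CD84 and 5.96 after IgG1, both above the detection level. The difference of 1.33 is 2.52-fold, and 32 of the 11761 genes measured on both arrays had a higher one. Among the 2283 detected genes with a mean level between 6 and 7, the differences had a standard deviation of 0.46, 95% of them lay between -0.77 and 1.05, and 3.07% of these genes were 2-fold higher.

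The other synthases were not past 1.5-fold in either direction. Ptges2, a second membrane-associated prostaglandin E synthase, was at 6.07 after anti-CD84 and 6.22 after IgG1, a difference of -0.14. Ptgis, prostacyclin synthase, was at 4.91 after anti-CD84 and 5.15 after IgG1. That puts both values of Ptgis within 0.31 of the detection level, so its difference of -0.23 is measured at the edge of the range.

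Ptges3 encodes the cytosolic prostaglandin E synthase, a protein also known as the Hsp90 co-chaperone p23. The probe set that names Ptges3 alone had values of 4.11 after anti-CD84 and 4.32 after IgG1, both under the detection level, and gives no fold. A pair of other probe sets name Ptges3 together with the pseudogene Ptges3-ps, and both were bright. One was at 8.98 after anti-CD84 and 8.92 after IgG1, and the other at 11.20 and 11.28. Their differences were 0.06 and -0.09, so none of the 3 probe sets moved by more than 0.21. How much of the bright signal comes from Ptges3 and how much from the pseudogene cannot be told from these values.

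Among the receptors, Ptgfr had the largest difference of all the measured prostaglandin genes. Ptgfr encodes the receptor for prostaglandin F, which signals through Gq and calcium. Its log2 value was 6.84 after anti-CD84 and 5.39 after IgG1, so the IgG1 value was 0.55 above the detection level. The difference of 1.45 is 2.73-fold, and 13 of the 11761 genes measured on both arrays had a higher one. Ptgfr falls into the same range of mean level as Ptges, and its difference likewise exceeded 1.05.

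The receptors for prostaglandin E gave small differences or no signal. Ptger4, which encodes EP4 and raises cAMP through Gs, was at 6.55 after anti-CD84 and 6.46 after IgG1, a difference of 0.09, the same to 2 decimals as the median of all detected genes. Its sign turned under quantile normalization, to -0.04. Ptger2, the other Gs-coupled receptor, had values of 4.16 after anti-CD84 and 4.17 after IgG1, under the detection level. Hpgd, the dehydrogenase that starts the breakdown of prostaglandins, was also under it, at 3.90 after anti-CD84 and 3.99 after IgG1.

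**Figure D2:**
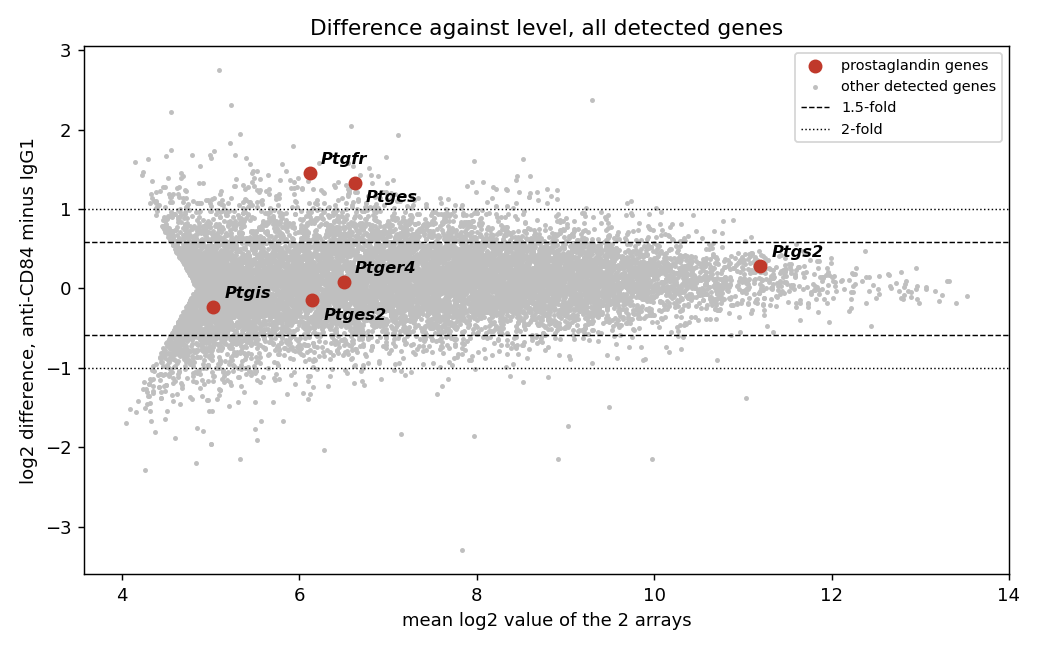
Log2 difference, anti-CD84 minus IgG1 (vertical axis), against the mean log2 value of the 2 arrays (horizontal axis) for 13284 detected genes (grey) and the 6 detected prostaglandin genes (red, named); dashed and dotted lines mark 1.5-fold and 2-fold. Ptgfr and Ptges lie above the 2-fold line at mean levels of 6.12 and 6.63, where differences are more widely spread than at the level of Ptgs2, 11.20.

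The 5 detected genes whose pair of values lay nearest to that of Ptges, over 2 arrays, were Tmem175, Gdap10, Fbxo21, Il18rap and Zfp942, at distances between 0.05 and 0.09 on the log2 scale. Nearest to Ptgs2 were Shmt2, Ptbp1, Fstl1, Stt3a and Laptm4a, at distances between 0.02 and 0.05. With 2 arrays this likeness rests on 2 numbers per gene.

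The rest of the prostanoid pathway was read from 4 lists, of which 33 of 50 measured genes were detected. Of these 33, 2 were at least 1.5-fold higher after anti-CD84, 1 was lower and 30 lay within 1.5-fold, with a median of 0.06, beside 10.7% of all detected genes higher and 6.4% lower. Among 15 detected genes of arachidonic acid release (median 0.02), Mgll, the monoacylglycerol lipase, was 1.58-fold higher (6.42 after anti-CD84, 5.76 after IgG1). Mgll lay inside 1.5-fold when differences were centred on the median of all genes or the arrays were quantile normalized. The secreted phospholipase Pla2g12a was 1.78-fold lower (5.62 after anti-CD84, 6.45 after IgG1). Pla2g4a, the cytosolic phospholipase that supplies arachidonic acid to the cyclooxygenases and which was named after its values were seen, was at 9.81 after anti-CD84 and 9.75 after IgG1.

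Of 5 other detected prostanoid synthases and reductases (median 0.15), 1 was at least 1.5-fold higher and 0 were lower. All detected genes had a median of 0.09, with 10.7% higher and 6.4% lower by that fold. The 1 gene was Akr1c18, an aldo-keto reductase known for inactivating progesterone, which was 1.91-fold higher (6.42 after anti-CD84, 5.49 after IgG1). Hpgds and Tbxas1, the synthases of prostaglandin D in haematopoietic cells and of thromboxane, stayed under the detection level on each array, and were named after their values were seen.

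None of 5 detected further receptors and partners and none of 8 detected genes of transport and breakdown passed 1.5-fold. Of all detected genes 10.7% were 1.5-fold higher and 6.4% lower, so a count of 0 in lists this short sets neither apart. In the first list (median 0.16) the nuclear receptor Pparg had a difference of -0.25 (7.81 after anti-CD84, 8.06 after IgG1) and Ppard one of 0.22 (7.67 after anti-CD84, 7.45 after IgG1). Ptger3, another receptor for prostaglandin E, stayed under the detection level on each array, and the prostacyclin receptor Ptgir was at 5.20 after anti-CD84 and 5.04 after IgG1; both were named after their values were seen. In the second list (median 0.05) the transporter Slco3a1 was at 7.79 after anti-CD84 and 7.45 after IgG1, and Cyp4f18 at 4.76, below the detection level, after anti-CD84 and 4.98 after IgG1.

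**Figure D3:**
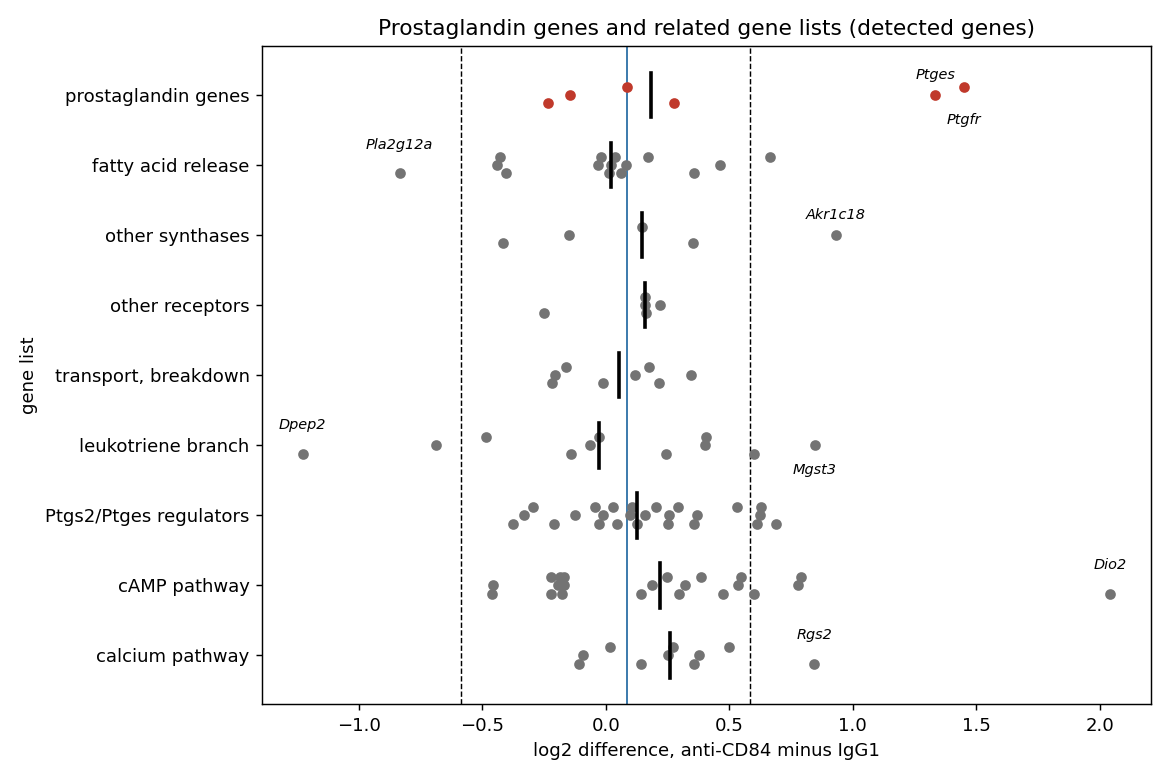
Log2 difference, anti-CD84 minus IgG1 (horizontal axis), of each detected gene in the prostaglandin group (red) and in 8 related lists (grey), with list medians as black bars, 1.5-fold as dashed lines and the median of all detected genes, 0.09, as a blue line. Ptgfr and Ptges lie beyond every gene of the other lists except Dio2, at 2.04.

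All 25 measured genes of a list known to control Ptgs2 and Ptges were detected, and 4 of them were at least 1.5-fold higher after anti-CD84, with 0 lower (median 0.12). Dusp1, a phosphatase that restrains p38 and JNK, was 1.61-fold higher (9.52 after anti-CD84, 8.83 after IgG1). The TNF receptor Tnfrsf1a was 1.54-fold higher, the adaptor Traf6 1.54-fold and the kinase Map3k8 1.53-fold. With differences centred on the median of all detected genes, and likewise with loess or quantile normalization, Dusp1 alone of the 4 passed 1.5-fold. Of all detected genes 10.7% were 1.5-fold higher as measured and 7.71% after centring, beside 4 and 1 of these 25. Lower by 1.5-fold were 6.4% of all detected genes as measured, beside 0 of these 25, and the median over all was 0.09. Egr1, a transcription factor known to induce Ptges and named after its values were seen, was at 9.82 after anti-CD84 and 10.11 after IgG1, a difference of -0.29.

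Downstream of the receptors, the cAMP pathway and its response genes had 22 detected members (median 0.22), of which 4 passed 1.5-fold upward and 0 downward, beside 10.7% and 6.4% of all detected genes. After centring the upward count was 3, beside 7.71% of all detected genes. As measured, the median over all detected genes was 0.09. Dio2, a thyroid hormone deiodinase, differed by 4.12-fold, at 7.60 after anti-CD84 and 5.56 after IgG1. The nuclear receptors Nr4a2 and Nr4a1 were 1.73-fold and 1.52-fold higher, Nr4a1 lying inside 1.5-fold under those same 3 scalings, and the cAMP phosphodiesterase Pde7a was 1.71-fold higher. A second probe set of Pde7a had a difference of -0.52, and averaging the 2 brought Pde7a inside 1.5-fold; one of Dio2 stayed under the detection level.

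In the list for Gq and calcium signalling, the route used by Ptgfr, 1 of 10 detected members was 1.5-fold higher and 0 were lower (median 0.26). Of all detected genes 10.7% were higher, about the share here, and 6.4% were lower, with a median of 0.09. After centring the median of the list was 0.17. The 1 higher gene was Rgs2, a regulator that restrains Gq, which was 1.79-fold higher (9.33 after anti-CD84, 8.49 after IgG1). A second probe set of Rgs2 stayed under the detection level, at 3.42 after anti-CD84 and 3.68 after IgG1, and averaging the 2 brought Rgs2 inside 1.5-fold.

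**Figure D4:**
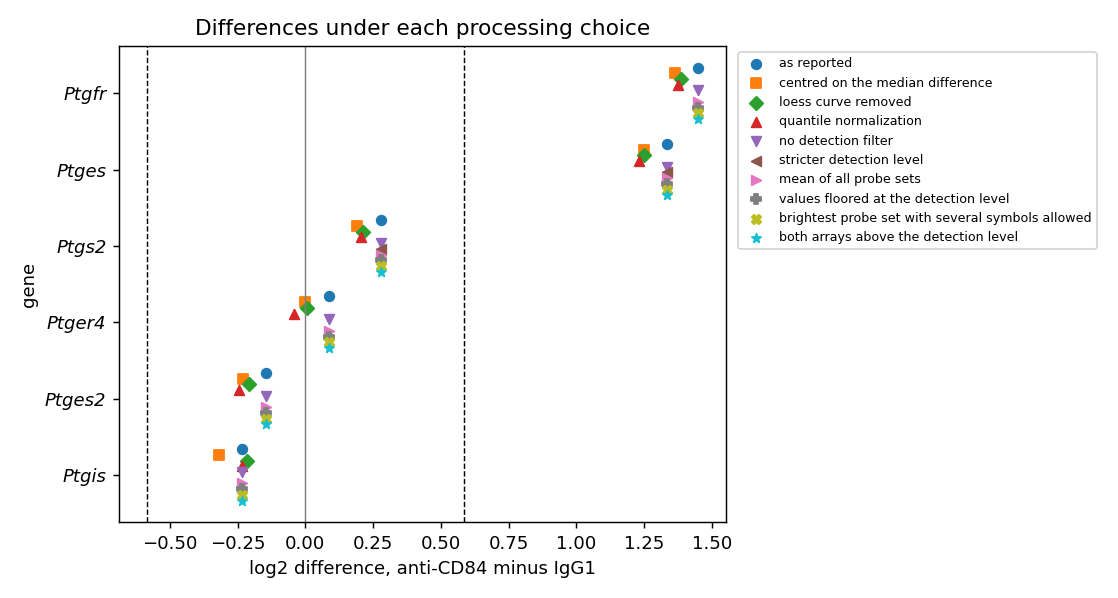
Log2 difference, anti-CD84 minus IgG1 (horizontal axis), of the 6 detected prostaglandin genes (rows) as reported and under 9 other processing choices (symbols), with 1.5-fold as dashed lines. Ptgfr stays between 1.36 and 1.45 and Ptges between 1.23 and 1.33, and Ptger4 alone crosses 0. Only centring, loess and quantile normalization changed any of the differences shown.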

How the data were processed

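RNA of 2 M210B4 cultures was hybridised to 1 array each, after labelling of 200 ng of total RNA. The authors deposited 1 log2 expression value for each probe set on each array. RMA and Partek were used, per the submitters' processing notes; versions, settings, annotation and build were not given in the sources used here. That the scale is log2 was judged from the range of the values, 1.82 to 13.8. Summaries of this kind tend to compress the differences of dim probe sets.

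GEO's annotation of the platform gave the gene names: 23521 of 41345 probe sets carried 1 symbol, 1814 carried more than 1 and 16010 are unnamed here. A gene was represented by its brightest single-symbol probe set. Counts past a fold used the differences as measured; only the fold printed for a single gene with 1 array below the detection level was counted from that level. No test was possible with 1 array per group, so sizes were counted at 1.5-fold and 2-fold and set beside the share of all detected genes. The counting step was run on simulated data with 200 genes shifted far past the fold thresholds and with noise narrower than the spread of the real differences. That checks its arithmetic alone. Lists were described by up to 4 genes past 1.5-fold, or the 2 with the largest difference, and the genes nearest to Ptges and Ptgs2 were taken by Euclidean distance. The members and lists were chosen with earlier results of these data known. Alternatives were median centring, a loess curve (limma, span 0.4), quantile normalization and no detection filter. Others were a stricter level of 6.88, averaging of a gene's probe sets, and values floored at the detection level. The stricter level was the 75th percentile of all probe set values over both arrays. A filter on both arrays and the use of probe sets with several symbols were added after seeing the data. Promoters came from RefSeq (GRCm38.p6), matched by symbol for 9 of 10 genes. Computation used limma 3.58.1 in R 4.3.3, and pandas 2.3.3, numpy 2.4.6 and matplotlib 3.10.9 in Python 3.11.15.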

Additional observations from a re-analysis of the deposited data

How the results depend on the processing

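No paired analysis was possible because each group holds 1 array, and for the same reason no replicate could be left out. Of the alternatives, 9 retained Ptges and 8 retained Ptgfr. Only centring, loess and quantile normalization changed their differences, and both genes stayed more than 2-fold higher under each. The rest left the differences as measured and so are no check on them. The stricter level, 6.88, left Ptgs2 and Ptges alone, so the count of prostaglandin genes past 1.5-fold was 1 in place of 2, Ptgfr being left out by the filter. Ptger4 turned to -0.04 under quantile normalization, and Ptgs2, Ptges2 and Ptgis kept their signs wherever they were retained. Over all detected genes, 1427 were 1.5-fold higher and 850 lower as reported, and 1024 and 1128 after centring. The 2-fold counts were 263 higher and 190 lower. Lower genes numbered 1575 at 1.5-fold and 302 at 2-fold with no detection filter, 548 and 76 with values floored, and 457 and 61 with both arrays above the level, where 171 were 2-fold higher. The stricter level gave 742 higher and 219 lower at 1.5-fold, and 113 and 29 at 2-fold. Loess moved the 1.5-fold split to 1140 higher and 979 lower, and quantile normalization to 1088 and 1037. Dimness limits what can be said of Ptgis, Ptger2, Hpgd and the single-symbol probe set of Ptges3.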

Other observations

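The leukotriene and lipoxygenase branch, which draws on the same arachidonic acid, had 11 detected members, of which 2 were past 1.5-fold upward after anti-CD84 and 2 downward by the values as measured, with a median of -0.03 (0.09 over all detected genes, of which 10.7% were 1.5-fold higher and 6.4% lower). The upward count was 1, Mgst3 alone, with values floored at the detection level, with both arrays required above it, or after centring. The microsomal glutathione transferase Mgst3 was 1.80-fold higher (8.15 after anti-CD84, 7.30 after IgG1), and Ltc4s, leukotriene C synthase, had a value of 5.18 after anti-CD84 and one of 4.58, under the detection level, after IgG1, which makes it at least 1.27-fold higher. Dpep2, a dipeptidase that trims cysteinyl leukotrienes, was 2.34-fold lower (6.99 after anti-CD84, 8.22 after IgG1). A second, dimmer probe set of Dpep2 differed by -0.08. Alox5, the lipoxygenase that starts the branch, was 1.61-fold lower (5.45 after anti-CD84, 6.14 after IgG1), with a second probe set under the detection level on each array. Averaging the probe sets brought Alox5 inside 1.5-fold and left 1 lower gene in the list. It also left 10 detected members in place of 11, and the median of the list turned to 0.11.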
